A study of Mus musculus with 9 samples.

Results

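The genes described here are 8 transcription factors that set or oppose the alveolar macrophage fate, namely Pparg, Bhlhe40, Bhlhe41, Cebpa, Cebpb, Spi1, Maf and Irf8. They were chosen by symbol, and all 8 were found by Entrez identifier among the 27179 genes of the count table. Polyadenylated RNA of alveolar macrophages, sorted by flow cytometry from lungs of mice aged 1 week, was sequenced in 5 libraries of Suz12 conditional knockout (Suz12 cKO) mice and 4 libraries of wild type mice, all of the C57BL/6 strain. Suz12 encodes a core subunit of Polycomb repressive complex 2, which methylates histone H3 at lysine 27 and represses genes with CpG-rich promoters. The series text calls the libraries of a group biological replicates. The sources used here do not name the Cre driver, the deleted exons, the sorting gate or the sex of the mice, nor do they say if mice were pooled. The p-values therefore measure the spread between these libraries. Fewer cells of a type and less RNA per cell cannot be told apart in bulk samples such as these.

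Alveolar macrophages take up inhaled particles and clear surfactant lipid from the air spaces. Fetal monocytes become alveolar macrophages around birth, when GM-CSF from the lung epithelium induces the nuclear receptor PPARG, and PPARG in turn switches on genes of lipid handling. PU.1, the product of Spi1, and the C/EBP factors open the enhancers shared by myeloid cells. In mice, BHLHE40 and BHLHE41 maintain alveolar macrophage identity and self-renewal, whereas MAF restrains macrophage self-renewal and is low in alveolar macrophages. IRF8 directs progenitors towards monocytes and dendritic cells and acts with PU.1 at enhancers.

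The libraries held 18.6 to 45.6 M (M, 1e6) counted reads in knockout and 13.8 to 25.3 M in wild type, and wild type 3 was the shallowest. Suz12 itself was at 11.9, 14.7, 21.8, 13.1 and 18.5 CPM (counts per 1e6 reads) in knockout libraries 1 to 5, against 67.5, 76.7, 51.7 and 70.7 CPM in wild type libraries 1 to 4 (log2 fold change -2.06, SE 0.18, adjusted p = 1.69e-05, edgeR quasi-likelihood test). The alveolar macrophage label was checked against 29 marker genes, all of which passed the count filter. Their summed level was 41778 to 70355 CPM in knockout and 47599 to 87368 CPM in wild type, and Siglecf, the sialic acid lectin that defines mouse alveolar macrophages, was at 418 ± 51.4 CPM in knockout and 451 ± 39.2 CPM in wild type (SD, n = 5 and 4). Replicate 3 of each group had the highest Chil3, a chitinase-like marker, at 32260.3 CPM in knockout 3 and 50860.2 CPM in wild type 3, which carries much of these sums. In knockout 3 other markers, named here after their values were seen, went both ways. Itgax, which encodes CD11c, was the lowest of its group at 641 CPM, against 1735 to 2557 CPM in the other knockout libraries. Car4 was also the lowest, at 318 CPM against 646 to 805 CPM. In contrast, Cd63 was the highest of its group, at 253 CPM against 104 to 120.2 CPM, as was Il18, at 411 CPM against 247 to 329.6 CPM. Among markers of other cells, the monocyte list summed to 892 to 1097 CPM in knockout and 337 to 569 CPM in wild type, with 2 of 12 tested genes higher and 1 lower, and Nr4a1, an immediate early gene that alveolar macrophages also express, made up 60.0% of it. The lymphocyte list summed to 36.2 to 139.7 CPM in knockout and 255 to 348 CPM in wild type, with 1 of 7 lower, and Cd2 made up 92.7% of it. Beside these counts, 8.97% of all tested genes were called higher and 11.0% lower. The sums of the interstitial macrophage, dendritic cell, neutrophil, epithelial, endothelial and fibroblast lists overlapped between the groups. Single genes carried some sums, with Fn1 at 99.6% of the fibroblast, Vwf at 96.2% of the endothelial and Bst2 at 75% of the dendritic cell sum. Median log2 fold changes were 0.9 for fibroblast, 0.87 for endothelial and 0.7 for neutrophil genes. They were 0.66 for interstitial macrophage, 0.09 for epithelial and -0.32 for dendritic cell genes, beside 0.04 over all tested genes. Among single markers, chosen here after their values were seen, Ly6g of neutrophils reached 0.0211 CPM at most and Cd3e of T cells 1.3 CPM. In contrast, Csf3r of the neutrophil list was called higher (log2 fold change 1.25, edgeR adjusted p = 0.00446), and the epithelial Epcam was at 2.67 to 49.2 CPM in knockout and 4.79 to 17.7 CPM in wild type (edgeR adjusted p = 0.228). The part of other cells in the results below was not tested.

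Of the 8 factors, all passed the count filter, 2 were called lower in knockout (Cebpa and Bhlhe41) and 0 were called higher, at an adjusted p under 0.05 in the edgeR quasi-likelihood test over 12840 genes. Over all tested genes the same rule called 19.9%, with 8.97% higher and 11.0% lower. The median log2 fold change of the 8 factors was -0.01, beside 0.04 over all tested genes, and the median of the absolute log2 fold change was 0.24, beside 0.27. In CPM, Pparg was the 1 factor of 8 whose groups did not overlap. Of all tested genes 20.8% showed this in either direction, 10.9% with knockout higher and 9.87% with knockout lower. The fold changes called were small, at 0.803-fold for Cebpa and 0.762-fold for Bhlhe41.

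**Figure D1:**
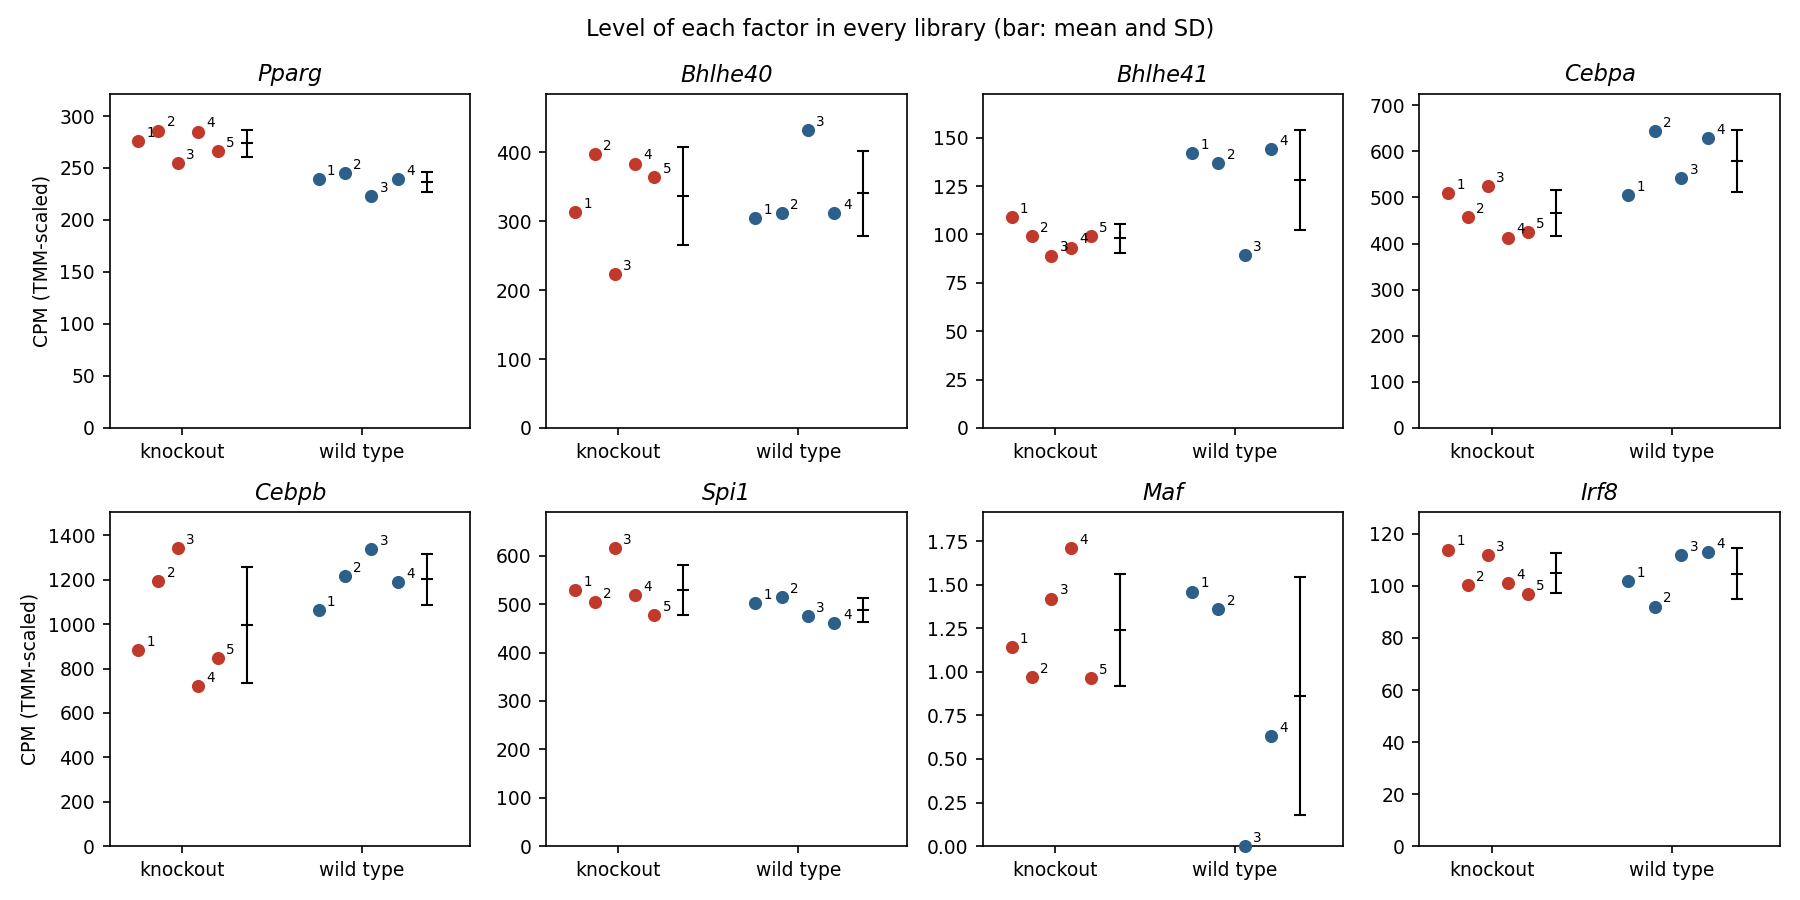
Level of each of the 8 factors in CPM (linear axis from 0) in every library, knockout left of wild type, with bars for the mean and SD. Pparg separates the groups with knockout at 255 to 286 CPM above wild type at 223 to 245 CPM, and wild type 3 sits apart from the other wild type libraries for Bhlhe40, at 433 CPM, and Bhlhe41, at 89.3 CPM.

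Pparg (Entrez 19016, GRCm38 chr6:115360879-115490404) encodes the lipid-sensing nuclear receptor of the alveolar macrophage programme. It was at 276, 286, 255, 285 and 266 CPM in knockout libraries 1 to 5, against 239, 245, 223 and 239 CPM in wild type libraries 1 to 4. Every knockout library was above every wild type library. Its level averaged 274 ± 13.1 CPM in knockout and 236 ± 9.47 CPM in wild type (SD, n = 5 and 4), and it had the narrowest spread of the 8 factors, with a coefficient of variation of 4.8% in knockout and 4.01% in wild type. The log2 fold change of 0.21 (SE 0.07, 95% interval 0.05 to 0.37) had an unadjusted p of 0.0119 and an adjusted p of 0.0566 in edgeR, so it missed the threshold. It passed the threshold in 8 of 20 alternative analyses, among them DESeq2, with an adjusted p of 0.018, and limma voom, with 0.0443. These 8 include the 2 alternatives chosen after seeing the data. Pparg passed in 2 of the 9 omissions of a single library, with edgeR adjusted p between 0.0261 and 0.139. It did not pass with a replicate block (edgeR adjusted p = 0.088) or with Xist as a term in the fit (0.0758).

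Cebpa (Entrez 12606, GRCm38 chr7:35119293-35121928) encodes a leucine zipper factor that commits progenitors to the myeloid lineage. Its promoter is shown because it is one of the 2 called factors. The 250 bases before its start (RefSeq, GRCm38.p6, chr7:35119043-35119292, plus strand) read as follows, with a TATA-box match in capitals 30 bases before the start.
Cebpa: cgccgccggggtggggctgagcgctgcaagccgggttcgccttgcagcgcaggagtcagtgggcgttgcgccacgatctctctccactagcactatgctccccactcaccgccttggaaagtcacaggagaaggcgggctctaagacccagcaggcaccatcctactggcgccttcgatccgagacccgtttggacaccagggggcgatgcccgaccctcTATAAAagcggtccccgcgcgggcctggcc

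Cebpa was at 509, 457, 525, 413 and 425 CPM in knockout libraries 1 to 5, against 505, 644, 542 and 628 CPM in wild type libraries 1 to 4. Knockout 1 and knockout 3 overlapped the lower wild type libraries, and the other 3 knockout libraries were below all 4 wild type libraries. Cebpa fell, averaging 466 ± 49.8 CPM in knockout and 579.9 ± 66.8 CPM in wild type (SD, n = 5 and 4), a log2 fold change of -0.32 (SE 0.1, 95% interval -0.53 to -0.11, edgeR adjusted p = 0.0357). The call was lost when knockout 2, knockout 4, knockout 5, wild type 2 or wild type 4 was left out, with log2 fold changes between -0.37 and -0.26 over all 9 omissions and adjusted p between 0.0146 and 0.113. It was also lost when libraries were scaled by total counts alone, at -0.2 (edgeR adjusted p = 0.158).

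Bhlhe41 (Entrez 79362, GRCm38 chr6:145858243-145865420) encodes a basic helix-loop-helix repressor that binds E-boxes. Its promoter is shown for the same reason, and because it holds the E-box CACGTG that factors of this family bind, in capitals below. The E-box lies 153 bases before the RefSeq start at chr6:145865420. An exon of Bhlhe41 in the GENCODE annotation reaches further upstream, to chr6:145865558, so the E-box is closer to that exon than to the RefSeq start. The stretch printed is the 112 bases before that exon (RefSeq, GRCm38.p6, chr6:145865559-145865670, minus strand).
Bhlhe41: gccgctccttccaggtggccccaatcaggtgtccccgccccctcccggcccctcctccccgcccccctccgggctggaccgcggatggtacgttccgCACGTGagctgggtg

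Bhlhe41 was at 109, 99.1, 89.1, 93.2 and 99.1 CPM in knockout libraries 1 to 5, against 142, 137, 89.3 and 144 CPM in wild type libraries 1 to 4. Wild type 3 lay within the knockout range, and the other 3 wild type libraries were above all 5 knockout libraries. Bhlhe41 fell, averaging 97.9 ± 7.45 CPM in knockout and 128 ± 26.2 CPM in wild type (SD, n = 5 and 4), a log2 fold change of -0.39 (SE 0.13, 95% interval -0.66 to -0.12, edgeR adjusted p = 0.0412). The call held in 2 of the 9 omissions of a library, those of knockout 1 and wild type 3, and was lost in each of the other 7, with log2 fold changes between -0.52 and -0.33 and adjusted p between 0.00129 and 0.13. It was also lost with a correction for gene length, at -0.2 (edgeR adjusted p = 0.391), and with scaling by total counts alone, at -0.28 (0.168).

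Bhlhe40 (Entrez 20893, GRCm38 chr6:108660629-108666925) encodes the close relative of BHLHE41 and is the more inducible of the pair. It was at 313, 398, 223, 384 and 364 CPM in knockout libraries 1 to 5, against 305, 312, 433 and 312 CPM in wild type libraries 1 to 4. Replicate 3 held the lowest knockout value and the highest wild type value. The means were 336 ± 71.2 CPM in knockout and 341 ± 61.7 CPM in wild type (SD, n = 5 and 4), with a log2 fold change of -0.02 (SE 0.16, 95% interval -0.36 to 0.32, edgeR adjusted p = 0.953). Without replicate 3 of both groups, an alternative chosen after seeing the data, the log2 fold change was 0.25 (edgeR adjusted p = 0.0715). Bhlhe40 overlaps 0610040F04Rik, which is counted as a gene of its own and had 1 count over all libraries.

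The paired values of these repressors within a library were compared as a ratio of counts per base of gene. Bhlhe40 over Bhlhe41 was 1.31, 1.83, 1.14, 1.88 and 1.68 in knockout libraries 1 to 5, against 0.979, 1.04, 2.21 and 0.986 in wild type libraries 1 to 4. All 5 knockout libraries were above wild type 1, 2 and 4, and wild type 3 was above all of them. No test was made of ratios between chosen members.

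Cebpb (Entrez 12608, GRCm38 chr2:167688915-167690432) encodes the C/EBP factor that inflammatory signals induce and that mouse alveolar macrophages need. It was at 882, 1194, 1343, 721 and 846 CPM in knockout libraries 1 to 5, against 1062, 1217, 1339.9 and 1188 CPM in wild type libraries 1 to 4. Knockout 1, 4 and 5 were below all wild type libraries, and knockout 2 lay within the wild type range and knockout 3 just above it. The means were 997 ± 260.3 CPM in knockout and 1201 ± 114 CPM in wild type (SD, n = 5 and 4), a coefficient of variation of 26.1% in knockout and 9.51% in wild type. The log2 fold change was -0.27 (SE 0.16, 95% interval -0.61 to 0.07, edgeR adjusted p = 0.268), and with 1 library left out it ran from -0.39 without knockout 3 (edgeR adjusted p = 0.0415) to -0.17 without knockout 4 (0.464). With the correction for gene length it was -0.09 (edgeR adjusted p = 0.756). Cebpa over Cebpb per base was 0.329, 0.218, 0.223, 0.327 and 0.287 in knockout libraries 1 to 5, against 0.272, 0.302, 0.231 and 0.302 in wild type libraries 1 to 4, with the groups overlapping.

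Spi1 (Entrez 20375, GRCm38 chr2:91082374-91115759) encodes PU.1, the Ets factor that myeloid enhancers depend on. It was at 529, 504, 616, 518 and 478 CPM in knockout libraries 1 to 5, against 502, 514, 475 and 461 CPM in wild type libraries 1 to 4. The groups overlapped in CPM, with knockout 3 the highest library. The log2 fold change was 0.12 (SE 0.08, 95% interval -0.06 to 0.3, edgeR adjusted p = 0.376). With the correction for gene length it was 0.33 (edgeR adjusted p = 0.0138).

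Irf8 (Entrez 15900, GRCm38 chr8:120736358-120756694) encodes the interferon regulatory factor of monocytes and dendritic cells. It was at 114, 100.4, 112, 101 and 96.8 CPM in knockout libraries 1 to 5, against 102, 92.1, 112 and 113 CPM in wild type libraries 1 to 4. In CPM the groups overlapped over nearly their whole range. The 95% interval of its fold change ran from 0.879 to 1.14 (edgeR adjusted p = 0.98). Irf8 over Spi1 per base was 0.102, 0.0939, 0.0857, 0.092 and 0.0955 in knockout libraries 1 to 5, against 0.0958, 0.0845, 0.111 and 0.115 in wild type libraries 1 to 4, also overlapping.

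Maf (Entrez 17132, GRCm38 chr8:115703253-115706894), the factor that opposes self-renewal, was close to the limit of detection. Its raw counts were 54, 36, 53, 33 and 46 in knockout libraries 1 to 5, against 32, 34, 0 and 15 in wild type libraries 1 to 4. These are levels of 1.14, 0.97, 1.42, 1.71 and 0.962 CPM in knockout, against 1.46, 1.36, 0 and 0.632 CPM in wild type. A count of 0 in wild type 3 allows up to 3 counts, or 0.238 CPM, counting error only. The knockout libraries lay within or just above the wild type range. The log2 fold change of 0.49 (SE 0.81, 95% interval -1.25 to 2.23, edgeR adjusted p = 0.726) did not pass, so no change was detected. Without wild type 3 it was 0.11 (SE 0.54, edgeR adjusted p = 0.916). The parts of depth and of spread between libraries in the wide interval were not tested. Maf over Pparg per base was at most 0.00327 in knockout and 0.00334 in wild type.

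**Figure D2:**
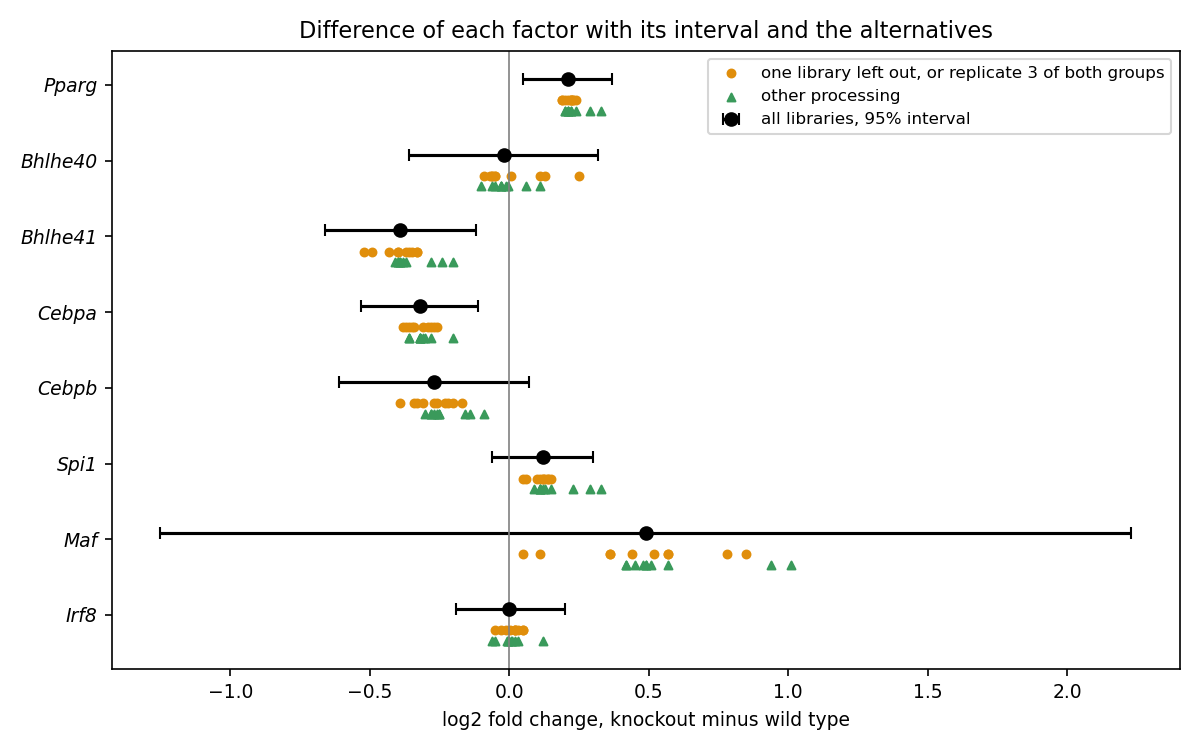
Log2 fold change of each factor, knockout minus wild type (horizontal axis), with its 95% interval from all 9 libraries in black, values with libraries left out in orange and values under other processing in green. Cebpa and Bhlhe41 stay below 0 and Pparg above 0 throughout, Bhlhe40 and Irf8 fall on both sides of 0, and the interval of Maf is the widest, from -1.25 to 2.23.

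**Figure D3:**
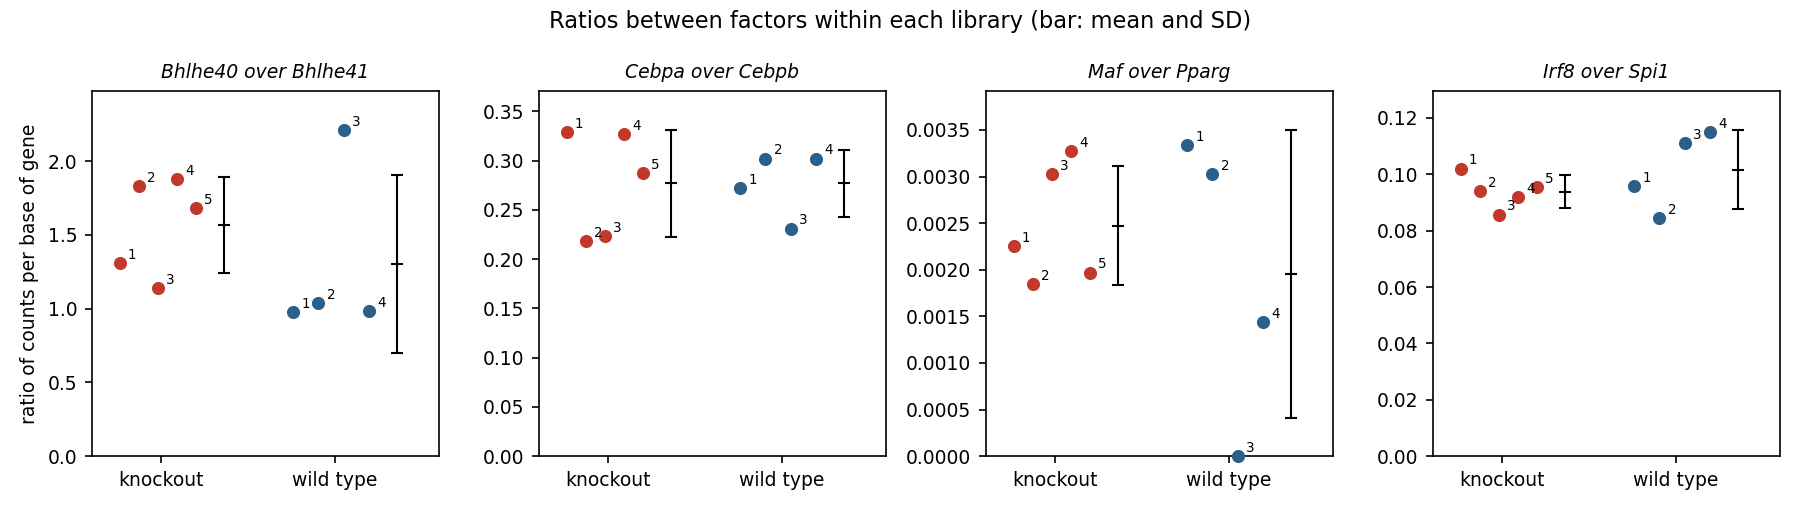
Ratios of counts per base of gene between pairs of factors within each library (linear axis), knockout left of wild type, with bars for the mean and SD. The groups overlap in all 4 ratios, and for Bhlhe40 over Bhlhe41 wild type 3 is highest, at 2.21, while the other wild type libraries are between 0.979 and 1.04.

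Levels were ordered within each library per base of gene, on the TPM scale computed from the counts (counts per base, scaled to one fixed total per library). Cebpb was highest, at 1392 ± 336 TPM in knockout and 1383 ± 136 TPM in wild type (SD, n = 5 and 4), followed by Spi1 at 833 ± 43.7 TPM in knockout and 637 ± 80.7 TPM in wild type. Cebpa came next at 372 ± 34.6 TPM in knockout and 383 ± 67.8 TPM in wild type, then Pparg at 291 ± 25.8 TPM in knockout and 207 ± 24.8 TPM in wild type. Bhlhe40 was at 229 ± 56.2 TPM in knockout and 188 ± 23.1 TPM in wild type, and Bhlhe41 at 146 ± 17 TPM in knockout and 158 ± 39.7 TPM in wild type. Irf8 followed at 78.1 ± 5.01 TPM in knockout and 63.8 ± 2.52 TPM in wild type, and Maf was last at 0.712 ± 0.161 TPM in knockout and 0.429 ± 0.347 TPM in wild type. All 5 knockout libraries had this order. Among the 4 wild type libraries, Pparg and Bhlhe40 exchanged places in wild type 3, and Bhlhe40 and Bhlhe41 in wild type 1 and 4, so these neighbours did not differ in level beyond their spread in wild type. In each library Cebpb and Spi1 ranked within the top few percent of tested genes, Cebpb at percentiles 99 to 99.7 in knockout and 99.3 to 99.5 in wild type, while Maf was at percentiles 4.14 to 9.51 in knockout and 3.75 to 10.5 in wild type. In TPM every knockout library was above every wild type library for Pparg, Spi1 and Irf8, of which Spi1 and Irf8 overlapped in CPM. Spi1 was at 782 to 895 TPM in knockout and 562 to 741 TPM in wild type. Irf8 was at 74 to 86.4 TPM in knockout and 62.1 to 67.6 TPM in wild type. The share of all genes that separate in TPM was not computed. TPM values depend on the composition of each library and were not used for tests between the groups.

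The RNA of Xist, which marks female cells, was high in 2 of 5 knockout libraries and 3 of 4 wild type libraries, and the sex of the mice is not labelled. Among the libraries with high Xist, Cebpa was at 425 to 457 CPM in knockout and 505 to 644 CPM in wild type, and among those with low Xist at 413 to 525 CPM in the 3 knockout libraries and 628 CPM in the 1 wild type library. Bhlhe41 was at 99.1 CPM in both knockout libraries with high Xist, within the 89.3 to 142 CPM of wild type, and among libraries with low Xist at 89.1 to 109 CPM in knockout and 144 CPM in wild type. Pparg was at 266 to 286 CPM in knockout and 223 to 245 CPM in wild type with high Xist, and at 255 to 285 CPM in knockout and 239 CPM in wild type with low Xist. With Xist as a term in the fit, Bhlhe41 had a log2 fold change of -0.41 and an edgeR adjusted p of 0.0503.

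The genes whose levels ran most like those of a called factor were ranked by Pearson r of log2 CPM over the 9 libraries, among 7682 genes of at least moderate level. For Bhlhe41 these were Ubr7 (r = 0.956) and Fam118b (r = 0.955), and for Cebpa they were Hs6st1 (r = 0.962) and Mogs (r = 0.954). These values describe libraries that share group and depth, and they carry no test. Fam118b overlaps the counted gene Srpr.

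Promoter windows of 300 bases, 250 of them before a RefSeq start, were found for 5 of the 8 factors among 27025 RefSeq promoters. Where a gene had several windows, the first listed was taken. The window of Pparg, chr6:115360894-115361193, lies inside the span of the gene, which begins at chr6:115360879. In Pparg and Bhlhe41 the part before the start overlaps an exon of the same gene in the GENCODE annotation, so their windows hold some transcribed sequence there. Each of the 5 held more CpG than the median promoter, which held 7. Cebpb had 50 CpG (percentile 99.1), Pparg 44 (97.8), Irf8 38 (95.2), Bhlhe41 32 (90.8) and Cebpa 29 (87.3). The E-box CACGTG was found in Bhlhe41 alone of the 5, and in 7.24% of all promoters. TATAAA was found in 3 of the 5, Cebpa, Cebpb and Irf8, and in 14.2% of all promoters. The C/EBP-type motif TTNNGNAA (40.7% of all promoters), the PU.1-type GAGGAA (28.3%), the interferon-response motif of GAAA, any 2 bases and GAAA (3.49%), the nuclear receptor repeat of AGGTCA, any 1 base and AGGTCA (0.0444%) and the MAF motif of TGCTGA, any 1 base and TCAGCA (0.0074%) were in none of the 5 windows on either strand.

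Among other transcription factors of macrophages, Atf3 and Ets2 rose and Id3 fell by more than 1 on the log2 scale in knockout. Of 54 listed factors 49 were tested, 8 were called higher and 4 lower in knockout, with a median log2 fold change of 0.18. Over all tested genes 8.97% were called higher and 11.0% lower, with a median of 0.04. Atf3, a stress-induced repressor, rose to 237 ± 20.2 CPM in knockout, against 84.8 ± 26.5 CPM in wild type (log2 fold change 1.49, SE 0.17, edgeR adjusted p = 0.000129). Ets2, an Ets factor downstream of growth signals, rose to 204 ± 34.1 CPM in knockout, against 76.1 ± 18.9 CPM in wild type (1.42, SE 0.17, adjusted p = 0.000138). Id3, an inhibitor of helix-loop-helix factors, fell to 2.55 ± 1.18 CPM in knockout, against 10.9 ± 1.55 CPM in wild type (-2.1, SE 0.36, adjusted p = 0.00114). Smaller rises were called for Hif1a (0.49), Irf1 (0.46), Bach1 (0.34) and Tfe3 (0.3), and a fall for Batf (-0.49), each on the log2 scale. With the correction for gene length Batf was at -0.12 and lost its call, as did Bach1 at 0.25. Bach1 also lost its call without knockout 1, 2 or 5 or wild type 1, and Tfe3 without knockout 1, 2, 3 or 5 or wild type 1 or 4. Of the 12 calls, Nr1h3 (-0.39) and Nfe2l2 (0.28) were below the 10 that the naming rule takes.

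Among relatives of the 8 factors, Cebpg fell in knockout. Cebpg, a C/EBP partner that lacks an activation domain, was at 108, 111, 109.6, 124 and 108 CPM in knockout libraries 1 to 5, against 156, 147, 159 and 149 CPM in wild type libraries 1 to 4. The groups did not overlap, and Cebpg fell by 0.45 on the log2 scale (SE 0.08, edgeR adjusted p = 0.00107). The relatives Cebpd (-0.1, edgeR adjusted p = 0.697), Irf5 (0.34, 0.0569), Irf4 (1.25, 0.409) and Rxra (-0.1, 0.458), chosen after their values were seen, did not pass the threshold.

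**Figure D4:**
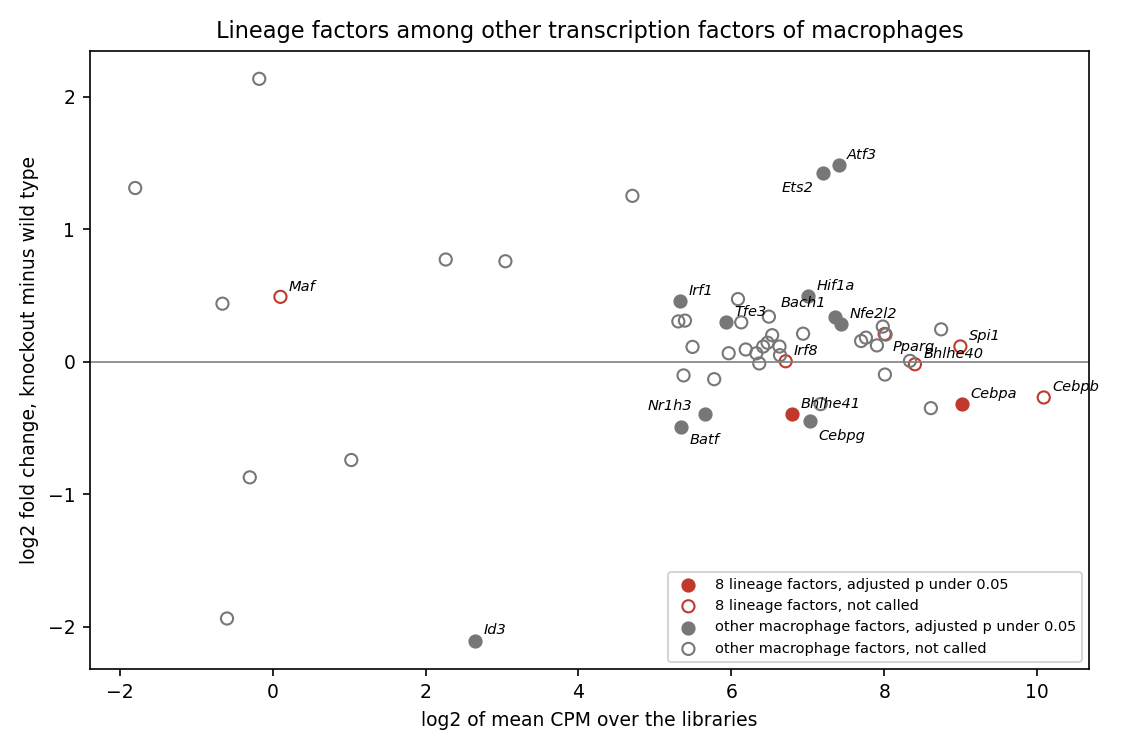
Log2 fold change, knockout minus wild type (vertical axis), against log2 of the mean CPM (horizontal axis) for the 8 lineage factors in red and other macrophage transcription factors in grey, filled where the adjusted p was under 0.05. The red points lie between -0.39 and 0.49, while grey points above 1 include Atf3 and Ets2 and the lowest is Id3 at -2.1.

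Genes linked to these factors were described by lists, which were chosen with earlier results of these data known. For comparison, 8.97% of all tested genes were called higher and 11.0% lower, with a median log2 fold change of 0.04. Of 23 tested PPARG target and lipid genes, 7 were called higher and 4 lower, with a median log2 fold change of 0.05. Lpl, the lipoprotein lipase, was at 2737 ± 101 CPM in knockout and 1806 ± 186 CPM in wild type (0.6, SE 0.08, edgeR adjusted p = 0.000207), Mgll, a monoglyceride lipase, rose by 0.5 on the log2 scale and Tgm2, a transglutaminase, by 0.53. The 4 called lower, named after their values were seen, were the fatty acid binding proteins Fabp1 (-1.73) and Fabp5 (-0.43), the peroxisomal and mitochondrial enzyme gene Ech1 (-0.39) and the scavenger receptor Olr1 (-0.32). Of 31 tested PU.1 and C/EBP myeloid genes, 5 were higher and 6 lower, with a median of 0.09. Csf1r, the M-CSF receptor, was at 421 ± 33.1 CPM in knockout and 304 ± 20.8 CPM in wild type (0.47, SE 0.08, edgeR adjusted p = 0.00141), whereas Cyba, a subunit of the NADPH oxidase, fell to 705 ± 99.1 CPM in knockout, against 1206 ± 199 CPM in wild type (-0.78, SE 0.12, edgeR adjusted p = 0.000546). With the correction for gene length Cyba was at -0.32 and kept its call (edgeR adjusted p = 0.0107). Tyrobp, a signalling adaptor, fell by 0.7 on the log2 scale, a call lost with the correction for gene length (edgeR adjusted p = 0.29).

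Of 14 tested MAF associated genes, 2 were higher and 0 lower, with a median log2 fold change of 0.83. Over all tested genes 8.97% were called higher and 11.0% lower, with a median of 0.04. Part of the list was at low levels and not called, such as C1qa, C1qb and C1qc, at most 5.04, 2.7 and 3.61 CPM in any library. Mertk, a receptor for apoptotic cells, was at 399 ± 37.6 CPM in knockout and 297 ± 25.3 CPM in wild type (0.43, SE 0.09, edgeR adjusted p = 0.00446). Apoe, the lipid carrier, was at 750.1 ± 636 CPM in knockout and 82.1 ± 17.6 CPM in wild type (3.19, SE 0.61, edgeR adjusted p = 0.0102), and its log2 fold change was 2.53 without knockout 3. Of 17 tested IRF8 associated genes, 3 were higher and 3 lower, with a median of -0.03. Il18, a cytokine, fell to 311 ± 64.3 CPM in knockout, against 535 ± 55.4 CPM in wild type (-0.78, SE 0.13, edgeR adjusted p = 0.000937), or by 0.39 on the log2 scale with the correction for gene length (edgeR adjusted p = 0.0191). Gbp5, an interferon-induced GTPase, rose by 1.3 on the log2 scale (edgeR adjusted p = 0.0129). Cst3, the protease inhibitor cystatin C, was at 341 ± 31.6 CPM in knockout and 448 ± 71.3 CPM in wild type (-0.39, edgeR adjusted p = 0.0175), and its log2 fold change was 0.07 with the correction for gene length and -0.27, no longer called, without wild type 3. Of 16 tested clock genes, listed because BHLHE40 and BHLHE41 are part of the clock, 2 were higher and 0 lower, with a median of 0.15. They were Csnk1d, a clock kinase (0.42, edgeR adjusted p = 0.00667), and Nfil3, a leucine zipper repressor (0.9, edgeR adjusted p = 0.0214). A link of either gene to BHLHE40 or BHLHE41 was not tested. The call of Nfil3 was lost without knockout 5 or wild type 2, and Csnk1d overlaps the counted gene Slc16a3.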

How the data were processed

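The authors deposited whole-number counts of reads per gene for 9 libraries of single reads, made with featureCounts on mm10 per the submitters' processing notes. The sources used here do not name the aligner, tool versions, annotation release or strand setting, and a gene cannot be told from an antisense partner. The 9 single tables held the same values as the joint table. Entrez identifiers were matched to symbols for 25275 of 27179 genes. Groups came from the genotype labels. The main test was edgeR 4.0.16 (R 4.3.3), with filterByExpr, TMM scaling and robust quasi-likelihood over all 9 libraries with group as the single term, and Benjamini-Hochberg adjustment at 0.05. CPM are TMM-scaled. Precision is limited by 4 and 5 libraries. DESeq2 1.42.0, limma 3.58.1 (voom), other scalings and filters, a correction for gene length (loess, span 0.5), an Xist term (cut at 50 CPM), a replicate block and the omission of libraries were alternatives. The procedure was tested on simulated data. The members and lists were chosen with earlier results of these data known. Named genes are the 8 factors, Suz12, up to 10 called factors of the other macrophage transcription factors by adjusted p, up to 3 called genes of each other list, and the 2 genes most like each called factor among genes averaging 4 or more in log2 CPM. One gene that this rule selects is not reported or plotted here.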

Additional observations from a re-analysis of the deposited data

Results flagged for a closer look

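Within groups of 4 or 5 libraries, 2 of the 16 sets of values tested (8 factors in each of 2 groups) had a library far from the rest, beside the roughly 1 in 20 that chance gives. Bhlhe40 in wild type 3 was at 433 CPM, while the other wild type libraries were between 305 and 312 CPM. Bhlhe41 in wild type 3 was at 89.3 CPM, while the others were between 137 and 144 CPM. Both fall in the shallowest library, at 13.8 M counts, and the part of depth was not tested. Without wild type 3, the log2 fold change was 0.13 for Bhlhe40 and -0.52 for Bhlhe41.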

How the results depend on the processing

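Pparg stayed higher and Cebpa and Bhlhe41 lower under all 20 alternatives, but Cebpa and Bhlhe41 were both called in 8 of them, and the cause was not tested. The log2 fold changes that crossed the threshold or changed sign were as follows. With scaling by total counts alone they were 0.33 for Pparg, 0.11 for Bhlhe40, -0.28 for Bhlhe41 and -0.2 for Cebpa, and the median of all genes moved to 0.15, against 0.04 with TMM. Relative to that median, Pparg was at 0.17, Bhlhe41 at -0.43 and Cebpa at -0.36 with total counts alone. With the length correction they were 0.29 for Pparg, -0.2 for Bhlhe41, 0.33 for Spi1, -0.0092 for Irf8 and 0.07 for Cst3. Without its centring, an alternative chosen after seeing the data, they were 0.24, -0.24, 0.29, -0.06 and 0.02 for the same genes. Pparg was at 0.2 with DESeq2 and 0.21 with voom. The Xist term gave 0.06 for Bhlhe40, -0.41 for Bhlhe41 and -0.05 for Irf8. Irf8 was at -0.0045 with RLE factors and -0.0039 with DESeq2. Leaving out each library in turn gave 0.19 to 0.24 for Pparg, -0.09 to 0.13 for Bhlhe40, -0.52 to -0.33 for Bhlhe41, -0.37 to -0.26 for Cebpa, -0.39 to -0.17 for Cebpb, 0.06 to 0.15 for Spi1, 0.11 to 0.85 for Maf and -0.05 to 0.05 for Irf8. Without replicate 3 of both groups, also chosen after seeing the data, Pparg was at 0.22 and Bhlhe40 at 0.25. Bhlhe40 without knockout 1 was at 0.006. Irf8 was at -0.03 without knockout 1 and -0.01 without knockout 3.

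Over all genes, the 1152 called higher became 1966 with total counts alone and 741 with the replicate block, and 772 to 1434 with a library left out. The 1409 called lower became 883 with the length correction and 1074 to 1521 with a library left out. The share of higher calls was 45% in the main analysis, 66% with total counts alone and 57.4% with the length correction. Over the lists of genes linked to the factors, together with the other macrophage factors, 27 called higher became 43 with total counts alone and 20 to 28 with a library left out. The 16 called lower became 9 with total counts alone, 6 with the length correction and 10 to 18 with a library left out.

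Replicate numbers are shared by the groups, and the labels do not say if they pair the libraries. The correlation of deviations from the group means ran from -0.0565 to 0.115 over the same-numbered pairs, and 1 of 4 knockout libraries correlated best with its own number. So few pairs cannot decide whether the libraries were paired. With the replicate block, over libraries numbered 1 to 4, Cebpa was at -0.28 (edgeR adjusted p = 0.117) and 1121 genes were called lower. Bach1, Irf1, Tfe3 and Gbp5 also lost their calls with the block. Maf had 0 to 54 counts a library, and the part of depth in its wide interval was not tested.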

Other observations

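Of the 29 alveolar macrophage markers, 5 were called higher and 8 lower in knockout, with a median log2 fold change of -0.07. Over all tested genes 8.97% were called higher and 11.0% lower, with a median of 0.04. The 5 called higher, named after their values were seen, were Cd63 (1.2), Lpl (0.6), Spp1 (0.55), Marco (0.54) and Axl (0.27), on the log2 scale. The 3 markers described next had the smallest adjusted p of the list. Cd9, a tetraspanin, was at 3127 ± 218 CPM in knockout and 5691 ± 579.5 CPM in wild type (-0.86, SE 0.08, edgeR adjusted p = 3.52e-05). Ctsk, a cathepsin, was at 238 ± 53 CPM in knockout and 822 ± 219 CPM in wild type (-1.79, SE 0.19, edgeR adjusted p = 0.000155). Cd200r4, a receptor of the CD200R family, was at 105 ± 9.58 CPM in knockout and 180.1 ± 22 CPM in wild type (-0.78, SE 0.1, edgeR adjusted p = 0.000168). These 3 fell further than Cebpa or Bhlhe41 did on the log2 scale, and the difference between them was not tested.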
